A study of Mus musculus with 6 samples.

Results

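Mucins and trefoil factors were examined in tuft-like and non-tuft-like medullary thymic epithelial cells (mTEC). The genes were taken by name from the table of read counts and comprised 10 of its 52636 gene rows, namely the gel-forming mucins Muc2, Muc5ac, Muc5b and Muc6, the transmembrane mucins Muc1, Muc4, Muc13 and Muc16, and the trefoil factors Tff2 and Tff3. All 10 passed the filter on low counts. RNA came from thymus of C57BL/6 mice at 6 weeks of age, with 3 libraries of each population. Per the labels, cells of both populations bound the lectin UEA1 (UEA+), were MHCIIlo and lacked CD80, Sca1 and CD63. The tuft-like cells were CD117+ and CD66a+, the products of Kit and Ceacam1, and the non-tuft-like cells carried neither. Neither population received a treatment or carried an engineered allele according to the labels and methods. Whether the libraries of a group came from separate mice is not given in the sources used here, so the spread between them may be technical in part.

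Mucins are heavily O-glycosylated proteins of epithelial surfaces. Gel-forming mucins are secreted and polymerise into mucus, with MUC2 known from intestinal goblet cells, MUC5AC and MUC6 from the stomach and MUC5AC and MUC5B from the airway. Transmembrane mucins stay anchored in the apical membrane, and trefoil factors are small secreted peptides that accompany mucins and are known for their part in epithelial repair. In the thymus, mTEC express genes of many peripheral tissues, and some mTEC take on the programmes of peripheral epithelial cells, tuft cells among them.

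Muc2 was the only one of the 10 genes called different between the populations, and it was higher in tuft-like mTEC. Because the comparison turned on Muc2 and, in the other direction, was closest to a call for the abundant Muc1, the reference sequence of both promoters is given, taken from RefSeq (GRCm38.p6, the mm10 coordinates). RefSeq windows were matched for 6 of the 10 genes. Each sequence is the 250 bases before the annotated start, 5′ to 3′ on the plus strand, at chr7:141690090-141690339 for Muc2 and chr3:89228806-89229055 for Muc1. Capitals mark TATAAA, and CACCC or its reverse complement GGGTG.
Muc2: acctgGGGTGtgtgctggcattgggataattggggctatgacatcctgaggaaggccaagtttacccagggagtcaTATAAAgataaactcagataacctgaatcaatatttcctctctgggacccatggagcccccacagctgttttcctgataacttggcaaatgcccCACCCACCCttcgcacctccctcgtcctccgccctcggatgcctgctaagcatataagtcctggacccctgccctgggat
Muc1: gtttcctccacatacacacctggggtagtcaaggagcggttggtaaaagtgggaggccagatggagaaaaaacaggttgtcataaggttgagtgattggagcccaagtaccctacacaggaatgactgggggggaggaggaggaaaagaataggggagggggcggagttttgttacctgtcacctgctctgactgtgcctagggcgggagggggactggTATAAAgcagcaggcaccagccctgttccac
The Muc2 window held CACCC at 3 places, beginning 245, 80 and 76 bases before the start, the latter pair sharing 1 base. The Muc1 window held none. CACCC on either strand, the letters that Krüppel-like factors such as KLF4 bind, occurred in 52% of 32851 RefSeq promoter windows of this length. TATAAA lay 31 bases before the start of Muc1 and 174 bases before that of Muc2, and occurred in 12.4% of windows. The octamer ATGCAAAT, which POU factors such as POU2F3 bind, was in neither window and in 1.6% of all windows, and TTTATG, a CDX motif, was in neither and in 10.8%. The ETS core GGAA was in both windows and in 93.4% of all windows. Such matches describe letters and not binding.

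The unit of level is TMM-normalized CPM, that is, CPM after scaling each library by its TMM factor. A positive log2 fold change means a higher level in tuft-like mTEC, and tests are edgeR's quasi-likelihood test, called at a false discovery rate (FDR) under 0.05 over 32496 genes. The 6 libraries held between 20097617 and 48369825 counts on genes, so that a count of 0 allowed at most 0.0639 to 0.124 CPM, counting error only. As a check of the labels, 8 of 8 tuft cell genes were called higher in tuft-like mTEC, with summed levels of 669 to 866 CPM against 10511 to 17117 CPM. The sort genes Kit and Ceacam1 summed to 159 to 196 CPM in non-tuft-like and 475 to 706 CPM in tuft-like libraries, and of the pair Ceacam1 was called higher and Kit was not (edgeR FDR 0.0678). Reads that the counter assigned to no feature, which may include reads in introns, made up 19.7% of all reads in tuft-like replicate 3. Their share was 61.6% in tuft-like replicate 1, with the other libraries in between. The 1106 olfactory receptor genes served as a yardstick of background. Since mTEC express genes of many peripheral tissues, some of their counts may be expression, which was not tested. Their counts per exon kb averaged 2.63 in tuft-like replicate 3, 15.3 in tuft-like replicate 1 and 5.67 to 13.6 in the other libraries.

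Among all tested genes 2.11% were called, 1.16% as higher and 0.951% as lower in tuft-like mTEC. Of the 10 genes 1 was called higher, 0 were called lower, and 3 had an unadjusted p under 0.05, against 8.97% of all genes. DESeq2 called 3, Muc1, Muc2 and Muc5b, against 5.86% of all genes, and limma voom called 0. There was no overlap between the populations for Muc2 and Muc5b, which were higher in tuft-like mTEC, and for Muc1, which was lower. Such a lack of overlap was seen in 16% of all tested genes, with 7.18% higher and 8.85% lower in the tuft-like libraries. The 10 genes had a median log2 fold change of 0.69, beside 0.02 over all tested genes. This median rests in part on tuft-like replicate 3. Without that library Muc5ac turned from 0.90 to -1.71 and Tff2 from 0.85 to -1.06.

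**Figure D1:**
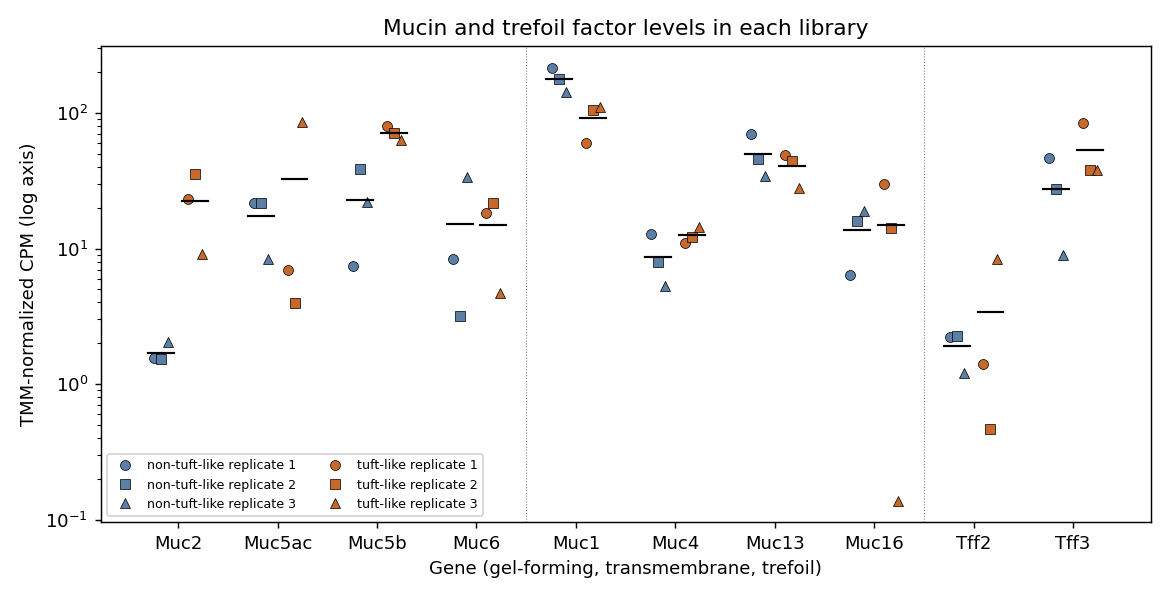
TMM-normalized CPM (log axis) of each gene in each of the 6 libraries, with replicates 1, 2 and 3 as circles, squares and triangles, non-tuft-like in blue and tuft-like in orange, and the group mean as a bar. The groups are apart for Muc2, Muc5b and Muc1 and overlap for the other genes, and tuft-like replicate 3 stands alone for Muc5ac, Tff2 and Muc16.

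Among the gel-forming mucins, Muc2 (ENSMUSG00000025515, chromosome 7 of mm10, 141690340 to 141754693, plus strand) stood at 1.55, 1.53 and 2.03 CPM in the non-tuft-like and at 23.2, 35.3 and 9.06 CPM in the tuft-like libraries, in the order of replicates 1, 2 and 3 here and throughout. Every tuft-like library lay above every non-tuft-like library, and tuft-like replicate 3 was the lowest of its group. The means were 1.70 ± 0.286 and 22.5 ± 13.2 CPM (SD, n = 3 libraries each), and the log2 fold change was 3.72 (approximate standard error, SE, 0.69, edgeR FDR 0.0204). Behind these values were 49 to 72 reads per non-tuft-like library and 328 to 1209 reads per tuft-like library. The call was lost without non-tuft-like replicate 1, 2 or 3 (edgeR FDR 0.0643, 0.0852 and 0.0556) and without tuft-like replicate 1 or 2 (0.0572 and 0.253), while without tuft-like replicate 3 the FDR was 0.00328. The log2 fold change lay between 3.24 and 4.06 over these omissions, and voom did not call Muc2 (adjusted p 0.162). The annotation tags the Muc2 locus as fragmented and gives it 7127 exonic bases, so part of the transcript may be missing from the count.

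Muc2 in non-tuft-like mTEC was near the mean level of the olfactory receptor genes. Its counts per exon kb were 1.21, 1.10 and 0.658 times their mean in the 3 non-tuft-like libraries. In the tuft-like ones the corresponding values were 5.16, 13.6 and 17.5 times. Against the olfactory receptor 99th percentile, Muc2 stood at 0.102 to 0.123 times in the non-tuft-like libraries and at 1.18, 2.46 and 0.942 times in tuft-like replicates 1, 2 and 3. Subtracting the mean olfactory receptor count per exon kb from every gene, an alternative chosen after the data were seen, kept the call of Muc2 (edgeR FDR 0.0199). The log2 fold change was then 7.30, a value that depends on the prior count because few or no reads were left in the non-tuft-like libraries.

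Muc5b (ENSMUSG00000066108, chromosome 7, 141839070 to 141873084) stood at 7.42, 38.7 and 22.1 CPM in the non-tuft-like and at 80.2, 71.2 and 63.5 CPM in the tuft-like libraries. The tuft-like libraries lay close together and above all non-tuft-like libraries, which spread 5.22-fold. Muc5b counts per exon kb were 0.282, 1.48 and 0.529 times the olfactory receptor 99th percentile in the non-tuft-like libraries. In the tuft-like ones they were 1.94, 2.36 and 3.15 times. For Muc5b the log2 fold change was 1.65 (SE 0.50, 95% interval 0.54 to 2.77) and was not called (edgeR FDR 0.183). DESeq2 called it (adjusted p 0.0133), as did edgeR without the filter (FDR 0.0349), and the FDR over all other settings reached 0.399.

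Muc5ac and Muc6 varied more within than between the populations. Muc5ac stood at 21.7, 21.8 and 8.42 CPM in the non-tuft-like and at 6.98, 3.95 and 86.1 CPM in the tuft-like libraries. Tuft-like replicate 3 was the highest of all 6 libraries and the other tuft-like libraries the lowest, a 21.8-fold range within the population. The log2 fold change of 0.90 (SE 0.96, edgeR FDR 1) turned to -1.71 without tuft-like replicate 3. Muc6 stood at 8.33, 3.15 and 33.8 CPM in the non-tuft-like and at 18.3, 21.7 and 4.67 CPM in the tuft-like libraries. Per exon kb it was at 0.193 to 1.29 times the olfactory receptor 99th percentile over the 6 libraries. Its highest and its lowest library were both non-tuft-like, and the log2 fold change of -0.02 (SE 0.85, edgeR FDR 1) became 1.37 without non-tuft-like replicate 3. The interval of the difference ran from -1.23 to 3.03 for Muc5ac and from -1.91 to 1.87 for Muc6.

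The 4 gel-forming genes lie next to each other on chromosome 7 in the order Muc6, Muc2, Muc5ac and Muc5b, with Muc6 on the minus strand. They did not move as a block, since the highest library was non-tuft-like replicate 3 for Muc6, tuft-like replicate 2 for Muc2, tuft-like replicate 3 for Muc5ac and tuft-like replicate 1 for Muc5b. Their summed level was 39.0, 65.2 and 66.3 CPM in the non-tuft-like and 129, 132 and 163 CPM in the tuft-like libraries. All tuft-like sums lay above all non-tuft-like sums, a difference that was not tested. Among single genes, 7.18% of all tested were higher in tuft-like mTEC without overlap. The largest part of the sum was Muc5b in tuft-like replicates 1 and 2 (80.2 and 71.2 CPM) and Muc5ac in tuft-like replicate 3 (86.1 CPM).

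**Figure D2:**
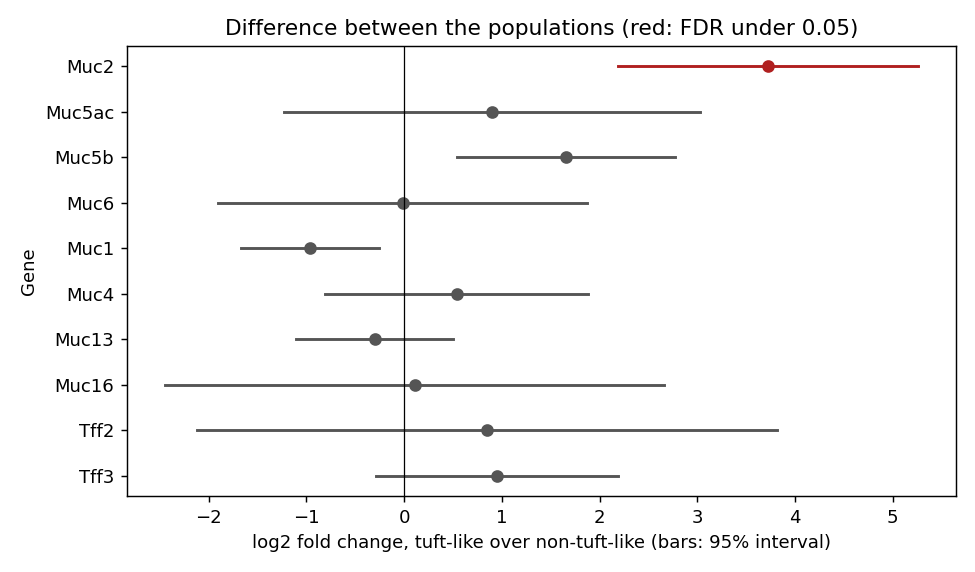
Log2 fold change of each gene (points) with its 95% interval (bars), tuft-like over non-tuft-like, with the gene called by edgeR in red. Muc2 lies at 3.72, the intervals of Muc5b and Muc1 leave out 0 without a call over all genes, and the other intervals include 0.

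Among the transmembrane mucins, Muc1 (ENSMUSG00000042784, chromosome 3, 89229057 to 89233381, plus strand), an apical mucin of many simple epithelia, had 7 exons and was read 1449 to 8336 times per library. It stood at 216, 177 and 143 CPM in the non-tuft-like and at 59.9, 106 and 110 CPM in the tuft-like libraries. All tuft-like libraries lay below all non-tuft-like libraries. The means were 179 ± 36.6 and 91.9 ± 27.8 CPM (SD, n = 3), which is -0.96 on the log2 scale (SE 0.32, 95% interval -1.67 to -0.26) that was not called (edgeR FDR 0.246). DESeq2 called it (adjusted p 0.0316), and edgeR after subtraction of background did as well (FDR 0.0468), and over all other settings the FDR reached 0.755. Muc1 counts per exon kb were at least 9.22 times the olfactory receptor 99th percentile in every library. Genes of mature mTEC, cells that the MHCIIlo and CD80- gates should remove from both populations, were also lower in tuft-like mTEC (6 of 7 called, summed level 14233 to 17865 against 2246 to 4985 CPM), as were those of keratinocytes (3 of 7 called, 3038 to 4938 against 120 to 1268 CPM). Over all tested genes 0.951% were called lower. The part of mature mTEC or keratinocytes in the level of Muc1 was not tested. In bulk RNA, fewer cells of a type and less RNA per cell cannot be told apart.

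Muc13, a transmembrane mucin of the intestine, and Muc4, which binds ERBB2, did not separate the populations. Muc13 stood at 69.8, 45.6 and 34.3 CPM in the non-tuft-like and at 49.2, 44.2 and 27.9 CPM in the tuft-like libraries, with a log2 fold change of -0.30 (SE 0.36, 95% interval -1.11 to 0.50, edgeR FDR 1). It lay at no less than 4.05 times the olfactory receptor 99th percentile in all libraries, and 184 of its 3038 exonic bases overlap an antisense gene. Muc4 stood at 12.7, 7.92 and 5.28 CPM in the non-tuft-like and at 10.9, 12.2 and 14.5 CPM in the tuft-like libraries. Its log2 fold change was 0.54 (SE 0.61, edgeR FDR 1). Muc4 stayed below the olfactory receptor 99th percentile in all 6 libraries, at 0.161 to 0.914 times. It shares 627 exonic bases with Muc20 on the other strand, and with no strand setting known for the counting, reads from these bases cannot be assigned.

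Muc16, whose protein carries the CA125 antigen, stood at 6.41, 15.9 and 18.9 CPM in the non-tuft-like and at 30.0, 14.3 and 0.138 CPM in the tuft-like libraries. Tuft-like replicate 3 held 5 reads on its 26350 exonic bases, against 203 to 749 in the other libraries. Per exon kb, Muc16 was at 1.36 to 3.08 times the mean of the olfactory receptor genes in 5 libraries and at 0.0721 times in tuft-like replicate 3, and it was below their 99th percentile in all 6 libraries. The library with the lowest share of reads assigned to no feature held the fewest Muc16 reads. Tuft-like replicate 1, with the highest share, had the highest Muc16 CPM. In between, the share was 34.4%, 36.6% and 52.5% in non-tuft-like replicates 1, 2 and 3 and 47.6% in tuft-like replicate 2. A link between this share and Muc16 was not tested. For Muc16 the log2 fold change was 0.11 (SE 1.15, edgeR FDR 1), with an interval from -2.45 to 2.66.

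The 4 transmembrane genes summed to 305, 247 and 202 CPM in the non-tuft-like and to 150, 176 and 152 CPM in the tuft-like libraries. Summed over all 10 genes the levels were 393, 342 and 278 CPM in the non-tuft-like and 365, 347 and 362 CPM in the tuft-like libraries. These ranges overlapped, with a ratio of the means of 1.06. Without Muc1 the sums were 176, 164 and 135 CPM against 305, 241 and 252 CPM, a ratio of 1.68. Muc1 took 51.5% to 55.1% of the reads on the 10 genes in the non-tuft-like and 16.4% to 30.5% in the tuft-like libraries.

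**Figure D3:**
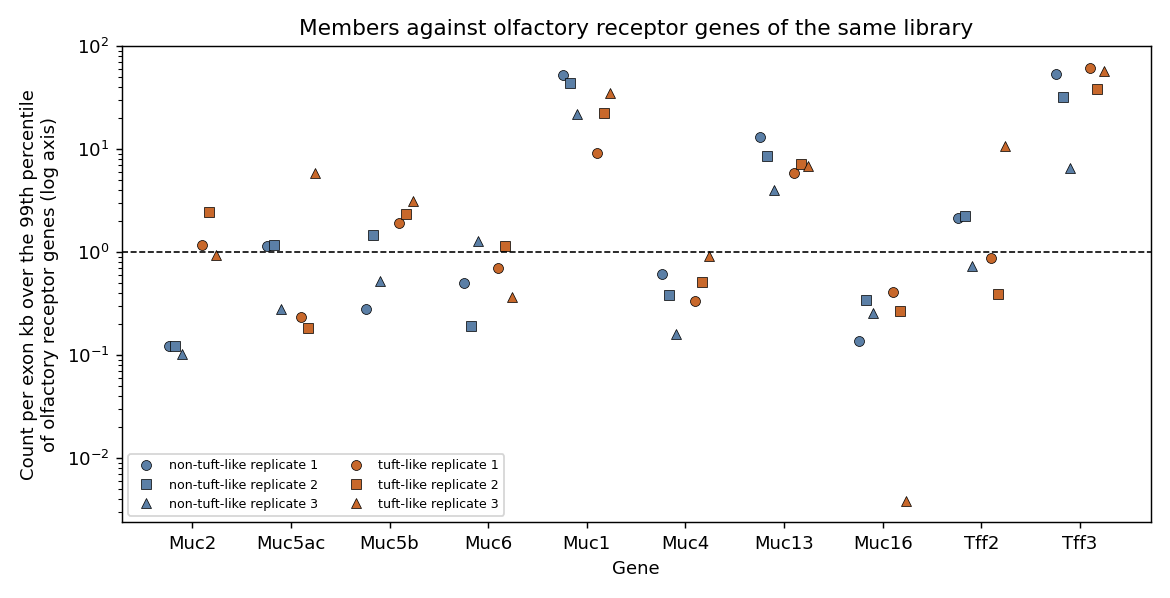
Count per exon kb of each gene divided by the 99th percentile of 1106 olfactory receptor genes in the same library (log axis, dashed line at 1), symbols as in the plot of levels. Muc1, Muc13 and Tff3 lie above the line in all 6 libraries, Muc4 and Muc16 below it in all 6, and Muc2 crosses it only in tuft-like replicates 1 and 2.

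Of the trefoil factors, Tff3, the trefoil peptide of intestinal goblet cells (ENSMUSG00000024029, chromosome 17, 31125306 to 31129646, minus strand), stood at 46.4, 27.4 and 9.03 CPM in the non-tuft-like and at 84.5, 37.9 and 37.8 CPM in the tuft-like libraries. Tuft-like replicate 1 was the highest and non-tuft-like replicate 3 the lowest, and the groups overlapped. For Tff3 the log2 fold change was 0.95 (SE 0.56, 95% interval -0.29 to 2.19, edgeR FDR 0.859). Tff3 lay at 6.56 to 61.9 times the olfactory receptor 99th percentile. The library with the most Tff3 also held the most RNA of fibroblast and endothelial genes, summed to 213 CPM in tuft-like replicate 1 and 12.6 to 36.2 CPM elsewhere, and the part of such cells was not tested.

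Tff2 (ENSMUSG00000024028, chromosome 17, 31141049 to 31144282), the spasmolytic peptide of gastric mucous neck cells, was counted 70, 107 and 38 times in the non-tuft-like and 34, 16 and 303 times in the tuft-like libraries. This gave 2.21, 2.28 and 1.21 CPM against 1.41, 0.468 and 8.37 CPM. Per exon kb, Tff2 was 2.15, 2.24 and 0.741 times the olfactory receptor 99th percentile in the non-tuft-like libraries. In the tuft-like ones the values were 0.869, 0.397 and 10.6 times. As for Muc5ac, tuft-like replicate 3 was the highest and the other tuft-like libraries were at the low end. The log2 fold change of 0.85 (SE 1.34, edgeR FDR 1) turned to -1.06 without tuft-like replicate 3. Tff1, the third gene of this chromosome 17 cluster and looked up after the values of Tff2 were seen, was also highest in tuft-like replicate 3, at 36.6 CPM against 3.18 to 10.1 CPM in the other libraries, and was not called (edgeR FDR 0.939).

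Since a long transcript collects more reads, levels of different genes were compared per exon kb. In non-tuft-like mTEC the order by mean CPM per exon kb began with Muc1 at 76.3 ± 15.6, Tff3 at 56.0 ± 37.9 and Muc13 at 16.4 ± 5.96 (SD, n = 3). In tuft-like mTEC it began with Tff3 at 108 ± 54.7, Muc1 at 39.2 ± 11.8 and Muc13 at 13.3 ± 3.66. Muc1 and Tff3 overlapped in the non-tuft-like libraries, where Tff3 ranged from 18.3 to 94.1 and Muc1 from 61.0 to 92.2. In the tuft-like libraries Tff3 at 76.6 to 171 lay above Muc1 at 25.5 to 46.8 in every library. Below Muc13 no gene averaged more than 5.85 (Tff2 in tuft-like mTEC), and the 4 gel-forming genes averaged 0.239 to 1.61 in non-tuft-like and 1.59 to 4.79 in tuft-like mTEC. Muc2 moved from the lowest place among the 10 genes in non-tuft-like mTEC to the middle of the order in tuft-like mTEC, where its mean of 3.16 ± 1.85 was within the spread of Muc5ac at 3.01 ± 4.33.

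**Figure D4:**
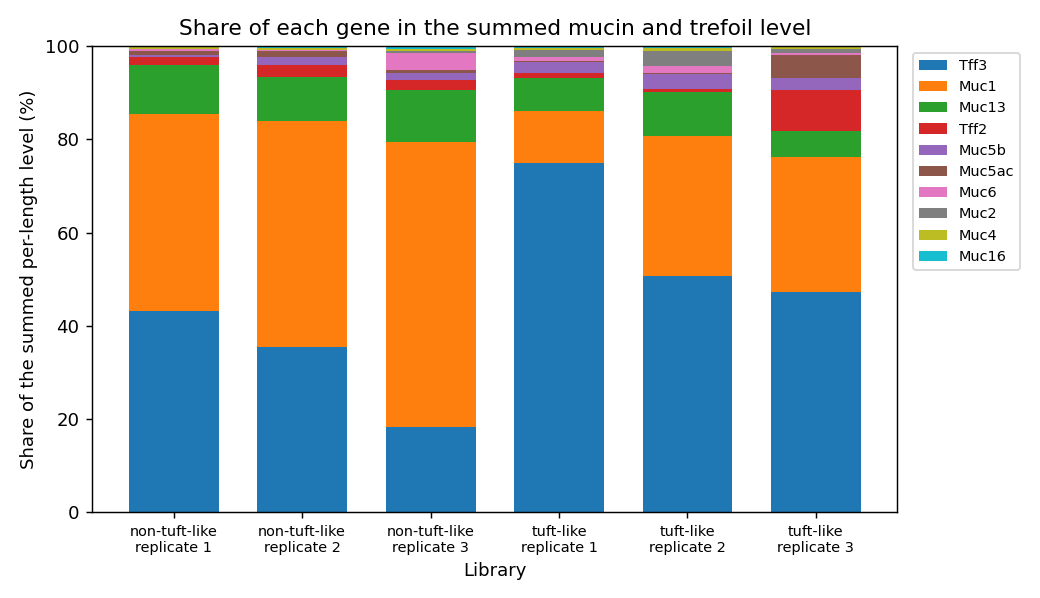
Share of each gene in the summed CPM per exon kb of the 10 genes, 1 bar per library adding to 100%. Tff3 and Muc1 together make up most of every bar, with Tff3 at 18.3% to 43.2% in the non-tuft-like and 47.2% to 74.9% in the tuft-like libraries.

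The coefficient of variation within a population ran from 16.8% (Muc2) to 109% (Muc6) in non-tuft-like and from 11.7% (Muc5b) to 144% (Muc5ac) in tuft-like mTEC. Muc1 and Muc13 varied by 20.4% and 36.3% in non-tuft-like and 30.2% and 27.5% in tuft-like mTEC.

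Genes that act with mucins, other mucins, and genes of gastric and airway epithelia were described from lists, here called the secretory lists. Over all tested genes, edgeR called 1.16% higher and 0.951% lower in tuft-like mTEC. Of 17 tested goblet cell regulators and mucus assembly genes, 2 were called higher and 1 lower in tuft-like mTEC, and the list's median change was 0.72 on the log2 scale. An unadjusted p under 0.05 was seen for 6 of them with edgeR, against 8.97% of all tested genes. DESeq2 called 5 higher and 1 lower, against 5.86% of all tested genes in either direction, and voom 2 higher and 1 lower. Without non-tuft-like replicate 2, edgeR called 0 of the list. Spdef, a transcription factor of goblet cell maturation, stood at 3.19, 2.07 and 3.40 CPM in the non-tuft-like and at 23.4, 19.2 and 34.1 CPM in the tuft-like libraries. The difference was 3.15 on the log2 scale (SE 0.55, edgeR FDR 0.0148), and only leaving out non-tuft-like replicate 2 lost the call among the omissions of a library (FDR 0.0817). Agr2, a disulfide isomerase that MUC2 needs for its assembly, stood at 4.39, 2.32 and 0.509 CPM against 14.5, 40.3 and 61.8 CPM. This was a difference of 4.01 on the log2 scale (SE 0.82, edgeR FDR 0.0337), lost without replicate 2 of the non-tuft-like or 2 or 3 of the tuft-like population (FDR up to 0.0888), with voom (0.0991) and after subtraction of background (0.161). Both genes, like Muc2, were higher in 3 of 3 tuft-like libraries, as were 7.18% of all tested genes. Of the 84 tested genes of the secretory lists, gastric and airway genes included, 9 were higher and 17 lower without overlap. The shares over all tested genes were 7.18% and 8.85%.

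The goblet list did not move as 1. Fcgbp, a mucus protein that binds to MUC2, was called lower in tuft-like mTEC, at 3231, 2949 and 3276 CPM in the non-tuft-like and 662, 933 and 1030 CPM in the tuft-like libraries. Its log2 fold change was -1.85 (SE 0.38, edgeR FDR 0.0323), and the call was lost without any of the non-tuft-like libraries or tuft-like replicate 2 (FDR up to 0.335 over the omissions of 1 library). Clca1, a goblet cell protease, stood at 350, 125 and 147 CPM against 322, 558 and 785 CPM, a log2 fold change of 1.42 that was not called (edgeR FDR 0.242) although DESeq2 (adjusted p 0.00737) and voom (0.0384) called it. Klf4 had a log2 fold change of 1.02 and was not called by edgeR (FDR 0.291) or voom (adjusted p 0.206), although DESeq2 called it (adjusted p 0.0352).

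Of 31 tested enzymes of mucin-type O-glycans, edgeR called 0, with 3 at an unadjusted p under 0.05, and voom called 0 and DESeq2 1. Over all tested genes edgeR called 2.11% and DESeq2 5.86%, and 8.97% had an unadjusted p under 0.05. Their median log2 fold change was -0.0024. Those with the highest mean CPM were Galnt18 (log2 fold change -0.91), Galnt14 (0.57) and B3gnt3 (0.32). Of 12 other mucin and trefoil genes edgeR called 0, with 3 at an unadjusted p under 0.05, voom called 0 and DESeq2 2, and those with the highest mean CPM were Cd164, Muc3a (log2 fold change -1.40, edgeR FDR 0.243) and Muc15 (-1.42, FDR 0.269). Cd164, a sialomucin, stood at 480 to 736 CPM in all libraries, with a log2 fold change of -0.12.

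Among 7 partners and receptors 1 was called lower and 0 higher, against 0.951% and 1.16% of all tested genes. With edgeR 3 had an unadjusted p under 0.05, against 8.97% of all tested genes. DESeq2 called 2 lower, against 5.86% of all tested genes in either direction, and voom 1 lower. Erbb2, the receptor tyrosine kinase that MUC4 binds, stood at 121, 240 and 250 CPM in the non-tuft-like and 42.3, 56.2 and 72.8 CPM in the tuft-like libraries, with a log2 fold change of -1.83 (SE 0.36, edgeR FDR 0.0265). The call was lost without replicate 2 or 3 of the non-tuft-like or 1 or 2 of the tuft-like population (FDR up to 0.126). Msln, whose product mesothelin binds MUC16, differed by -1.06 on the log2 scale without a call (edgeR FDR 0.519) and was called lower, at -1.84, without tuft-like replicate 3 (FDR 0.0166), with tuft-like replicate 3 at 497 CPM among the non-tuft-like values of 471 to 657 CPM. Erbb3 differed by -0.56 (FDR 0.885).

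Genes of other mucus-bearing epithelia were not called by edgeR with all libraries. The shares over all tested genes were 2.11% called by edgeR, 5.86% called by DESeq2 and 8.97% at an unadjusted p under 0.05. Of 7 gastric genes edgeR called 0, with 1 at an unadjusted p under 0.05, DESeq2 called 1 and voom 0. That gene was Pgc, pepsinogen C, with 18.5, 8.28 and 27.2 CPM in the non-tuft-like and 1.78, 0.146 and 0.0552 CPM in the tuft-like ones (change of -4.79 on the log2 scale, edgeR FDR 0.107), and Pgc was called lower by DESeq2 (adjusted p 0.000162), by edgeR without the filter (FDR 0.00381) and, at -7.43, without tuft-like replicate 1 (FDR 0.00816). Atp4a (-0.12) and Atp4b (-1.82) of the acid pump had an FDR of 1. Of 10 airway secretory genes edgeR called 0, with 3 at an unadjusted p under 0.05, DESeq2 called 2 and voom 0. Bpifa1 differed by -1.36 on the log2 scale (edgeR FDR 0.305), and Reg3g (-0.02) and Cyp2f2 (-0.16) had an FDR of 1. Without tuft-like replicate 3, Cyp2f2 was called lower, with a log2 fold change of -2.28 (edgeR FDR 0.0244). Reg3g and Cyp2f2 were highest in tuft-like replicate 3, at 3444 and 311 CPM, the library that was also highest for Muc5ac and Tff2.

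**Figure D5:**
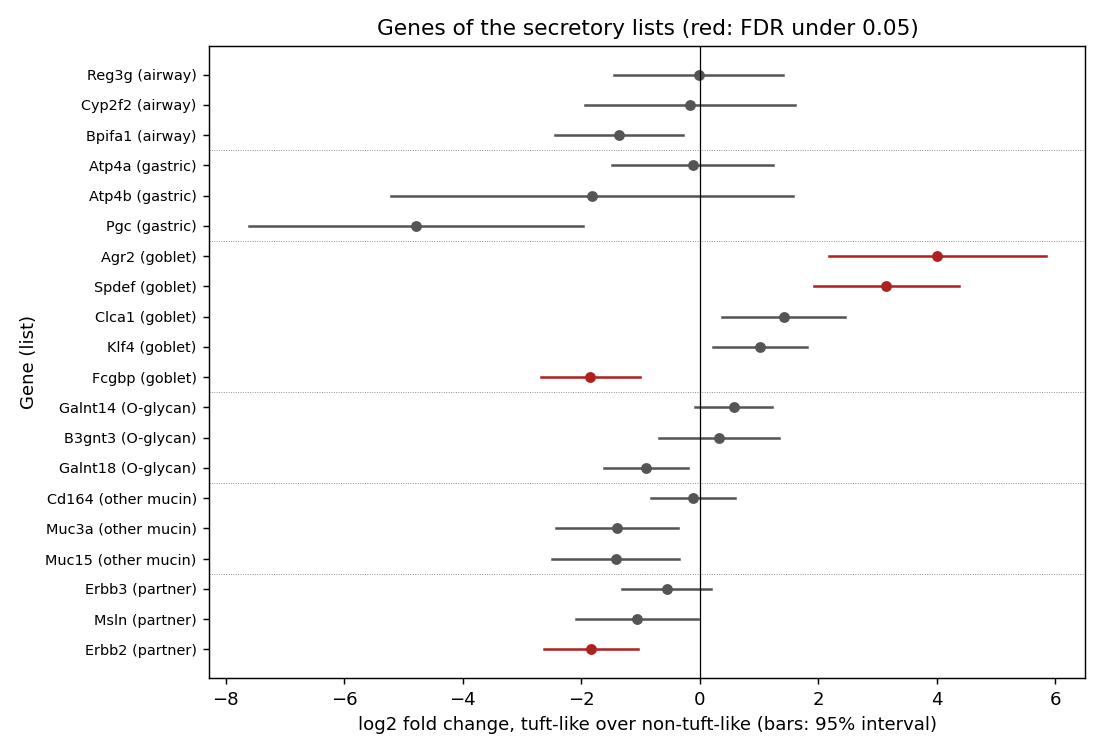
Log2 fold change (points) with 95% interval (bars), tuft-like over non-tuft-like, of the named genes of 6 lists (list in brackets), with genes called by edgeR in red. Agr2 and Spdef lie to the right and Fcgbp and Erbb2 to the left of 0.

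Markers of other cells were summed beside these values. Over all tested genes edgeR called 1.16% higher and 0.951% lower in tuft-like mTEC. DESeq2 called 5.86% of them, and 8.97% had an unadjusted p under 0.05 with edgeR. Microfold genes had 1 of 6 called higher and 1 lower, and DESeq2 and voom each called 2 higher and 1 lower. By edgeR 2 pointed higher and 4 lower with a median log2 fold change of -0.63. Their summed level went the other way, with 522 to 808 CPM in the non-tuft-like and 1158 to 4064 CPM in the tuft-like libraries, highest in tuft-like replicate 3. Enterocyte and hepatocyte genes had 1 of 8 called lower (3 with DESeq2, 1 with voom), at 277 to 559 CPM against 134 to 262 CPM. Of 5 thymic epithelial genes, which were counted in every library, 1 was called lower (2 with DESeq2, 2 with voom). None of the 7 thymocyte and leukocyte or the 5 fibroblast and endothelial genes was called (edgeR, with 0 and 1 at an unadjusted p under 0.05, and DESeq2 and voom called 0 as well), and none lay above the olfactory receptor 99th percentile in all 3 libraries of either population. The leukocyte genes summed to 12.0 to 59.2 CPM, with 3 of them at 0 in at least 1 library. The part of any of these cells in the mucin and trefoil levels was not tested.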

How the data were processed

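RNA of sorted mTEC was sequenced from 3 tuft-like and 3 non-tuft-like libraries made with a low-input SMARTer kit. Per the labels and the study's methods, the authors used Trimmomatic 0.36 for trimming, STAR 2.7.3a for alignment (mm10) and HTSeq for counting per gene, and the deposited values are raw counts. The annotation release and strand setting are not given in the sources used here. The 92 spike-in rows and the 5 summary rows of the counter were left out of library totals and tests. Ensembl identifiers were matched to names for 99.72% of rows, and coordinates and exon lengths are those of GENCODE gene models of mm10.

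Genes were filtered with filterByExpr (minimum count 10, minimum total 15), scaled by TMM and tested by edgeR 4.0.16 (quasi-likelihood, Benjamini-Hochberg FDR 0.05, R 4.3.3). DESeq2 1.42.0, limma 3.58.1 voom, other filters and scaling, a replicate block, omission of each library and subtraction of background were alternatives. No 2 libraries were copies of each other. The p-values measure only the spread between these libraries. The genes and lists were chosen with earlier results of these data known. Named genes were the 10 genes and, in each of the secretory lists, every gene called and the 3 with the highest mean CPM.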

Additional observations from a re-analysis of the deposited data

How the results depend on the processing

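The number of genes called, 687 with edgeR, was 1904 with DESeq2, 1127 without the filter, 1054 after subtraction of background and 376 to 922 when 1 library was left out, lowest on omission of replicate 2 of the tuft-like population, with 379 on omission of the same number of the other. Of the 10 mucin and trefoil genes 1 was called, against 3 with DESeq2, 0 with voom, 2 without the filter, 2 after subtraction of background and 0 to 1 when 1 library was left out. Of the 84 genes of the secretory lists 4 were called, against 14 with DESeq2, 7 without the filter and 0 to 6 when 1 library was left out. The shares over all tested genes were 2.11% with edgeR and 5.86% with DESeq2. The ratio of summed levels of 1.06 was 1.68 without Muc1 and 0.974 to 1.15 when 1 library was left out. The causes were not tested.

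Same-numbered libraries deviated from their group means with correlations of -0.156, -0.061 and -0.326, so no pairing by replicate number was seen. With 3 libraries in each group these values cannot exclude a shared origin, which the sources used here do not give. With a replicate block 737 genes and 0 of the 10 genes were called, Muc2 having an edgeR FDR of 0.0545 and Fcgbp 0.461, while Pgc, at -5.84, had an FDR of 0.0433 and 1 of the 10 airway genes was called lower.

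Direction turned for genes that were not called. Muc5ac became -0.16 with voom and -0.64 with the replicate block. Muc6 became 0.0095 with RLE scaling, 0.0094 with DESeq2, 0.48 with voom and 0.58 with the block. Muc16 became -2.07 with voom and -0.73 with the block, Tff2 -0.0045 and -0.18, and Atp4a 0.31 and 0.31. When 1 library was left out, log2 fold changes ran from -1.71 to 1.43 for Muc5ac, -0.50 to 1.37 for Muc6, -0.53 to 0.0023 for Muc13, -0.93 to 0.65 for Muc16, -1.06 to 1.37 for Tff2, -1.20 to 0.41 for Reg3g, -2.28 to 0.34 for Cyp2f2, -0.34 to 0.0029 for Cd164, -0.11 to 0.81 for B3gnt3 and -0.49 to 1.02 for Atp4a. Muc2, Muc5b, Muc1, Muc4 and Tff3 kept their direction in all 13 alternatives.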
